A study of Homo sapiens with 6 samples.

Results

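Translation initiation and elongation factors were followed in SKM-1 cells, an established human myeloid leukaemia line, treated for 48 h with celastrol, a plant triterpenoid, or with its solvent control DMSO. The members are the protein-coding rows of the deposited gene table whose symbol begins with EIF or EEF and a digit, without the 4 eIF2 kinase genes. They come to 67 of 58735 genes listed. The study holds 3 libraries of celastrol-treated and 3 of DMSO-treated cells, all of this 1 line and all from total RNA. No genetic change is labelled, the celastrol dose was not given in the sources used here, and nothing states whether replicates came from separate cultures. The p-values therefore reflect only library-to-library spread, which may be technical.

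Eukaryotic translation starts when eIF2, carrying GTP and the initiator tRNA, joins the small ribosomal subunit together with eIF1, eIF1A, eIF3 and eIF5. The eIF4F complex (cap-binding eIF4E, scaffold eIF4G and helicase eIF4A) brings the subunit to the capped mRNA, and the subunit scans to the start codon. Elongation is then driven by eEF1A, which delivers aminoacyl-tRNA, and eEF2, which moves the ribosome along. Many messages of the translation machinery carry a 5′ terminal oligopyrimidine tract (TOP), a C at the cap followed by a run of pyrimidines, and are known for joint control downstream of the kinase mTOR.

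Levels are in FPKM, reads scaled to gene length and library size. Of the 67 members, 60 had a mean of at least 1 FPKM over the 6 libraries and were tested. Differences are log2 fold changes, celastrol minus DMSO, on the log2(FPKM + 0.1) scale, from limma-trend over all 12685 genes that passed the same filter, with Benjamini-Hochberg adjustment over all of them and a threshold of 0.05. A call below means an adjusted p under that threshold. EEF1G, EIF1AY, EIF4E1B and the read-through genes EEF1AKMT4-ECE2 and EEF1E1-BLOC1S5 are listed at 0 in every library. EIF4EBP3 (5 to 9 reads per library) and EIF4E3 (48 to 110 reads) fell below the filter.

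The libraries held 13549187 to 16231066 listed reads. Reads of mitochondrial genes made up 1.37% to 1.85% of them with celastrol and 5.44% to 5.65% with DMSO. The FPKM divisor was 1.04 to 1.05 times the listed reads in the celastrol libraries and 0.963 to 0.994 times in the DMSO libraries, so scale and group move together, and the part of either in the results was not tested. Of 10 myeloid markers, 5 were under 1 FPKM on average (MPO, CSF1R, CD14, CEBPA and ANPEP), while all 5 erythroid markers were above it. Summed erythroid markers ran from 332 to 345 FPKM with celastrol and 312 to 341 with DMSO, summed myeloid markers from 44.1 to 48.0 and 58.5 to 69.3, and the epithelial and stromal list, carried by EPCAM and PECAM1, from 20.8 to 22.7 and 35.7 to 39.6. The 3 haematopoietic markers summed to 73.5 to 79.1 FPKM with celastrol and 75.2 to 83.3 with DMSO. The myeloid sum followed LYZ, at 16.5 to 18.8 FPKM with celastrol and 36.6 to 39.2 with DMSO, while SPI1, at 19.8 to 24.1 and 15.0 to 22.1, overlapped. The epithelial and stromal sum followed EPCAM alone, at 15.0 to 16.4 FPKM with celastrol and 30.3 to 33.8 with DMSO. PECAM1, at 5.39 to 6.43 and 5.24 to 5.69, overlapped. The myeloid and the epithelial and stromal sums do not overlap between groups, and their part in the results was not tested.

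More translation factor genes fell than rose. At the deposited scale 21 of the 60 tested members fell (35.0%) and 9 rose (15.0%), against 14.2% lower and 15.3% higher among all genes tested. The members' share lower stood above that background, and their share higher was close to it. Their median log2 fold change was −0.10, and that of all genes was 0.02. Members named EEF contributed 5 lower and 0 higher of 12 tested at an adjusted p under 0.05 by limma. Those named EIF contributed 16 lower and 9 higher of 48. This split is by symbol only. The EEF-named genes include the kinase EEF2K and methyltransferases, and the EIF-named genes include eIF5A genes and eIF4E-binding repressors. EEF1AKMT3 alone was higher among the EEF-named genes at an unadjusted p under 0.05, and limma-voom on recovered reads called 1 higher. No called member changed 2-fold or more. Celastrol libraries lay wholly below DMSO libraries for 24 members and wholly above for 14, with 22 overlapping. Among all genes tested 22.0% lay wholly below and 25.3% wholly above.

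**Figure D1:**
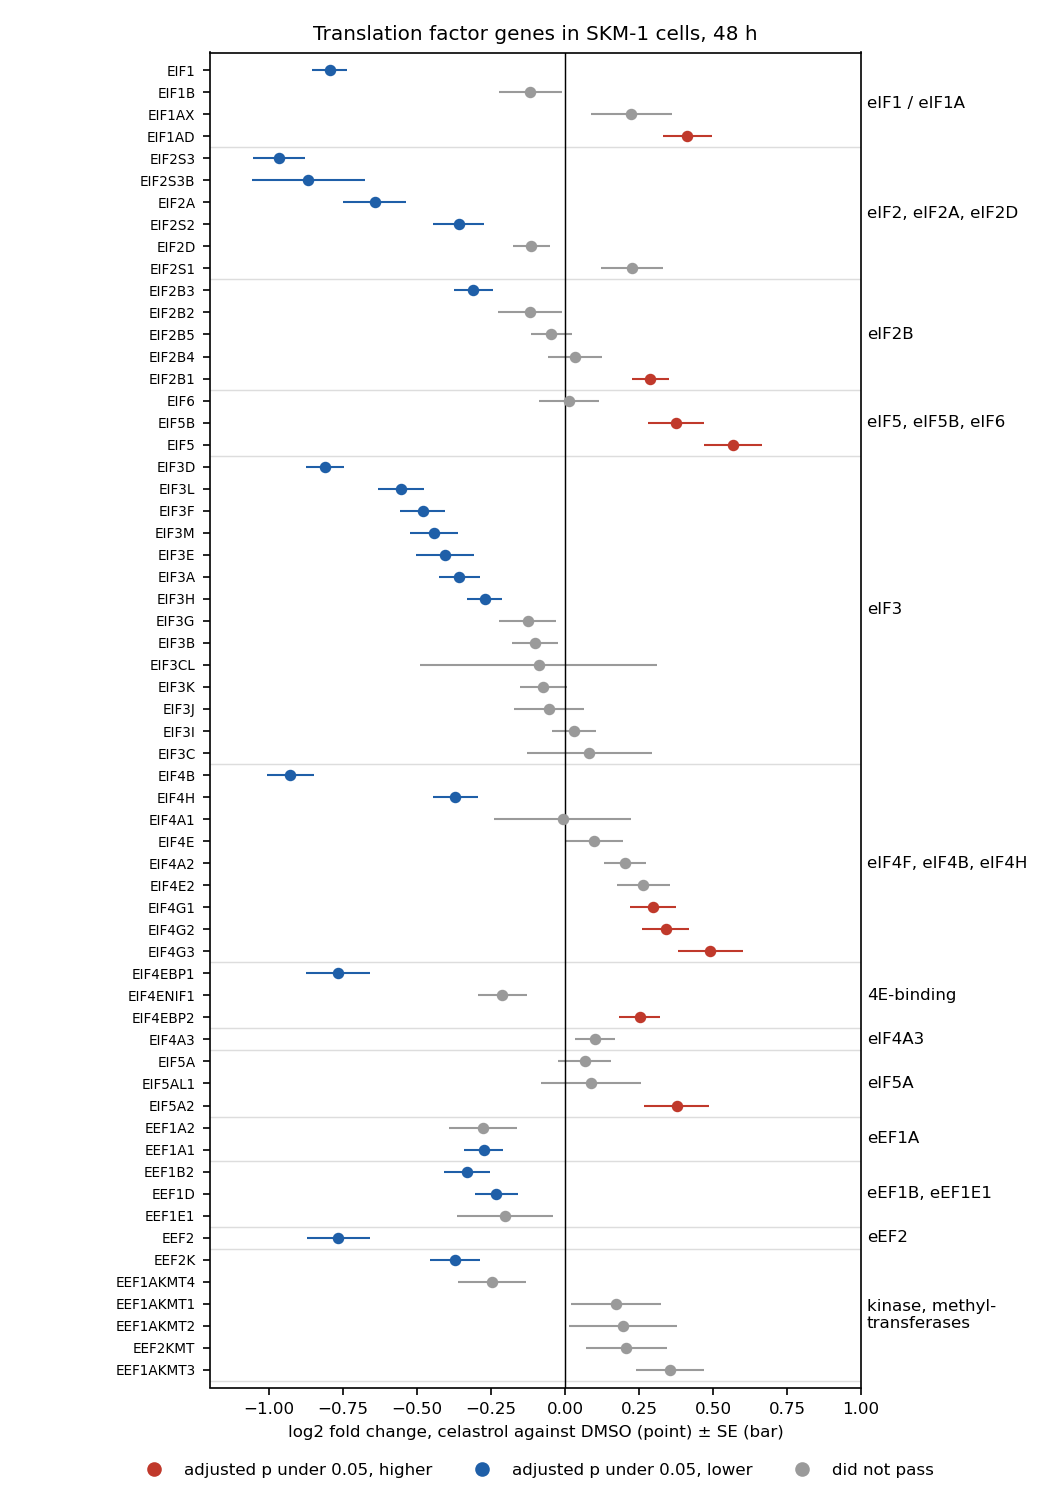
Log2 fold change (celastrol minus DMSO, FPKM as deposited) of each tested member, grouped by factor complex; bars are the standard error of the limma fit and colour marks the call. EIF2S3 (−0.97), EIF4B (−0.93) and EIF2S3B (−0.87) lie farthest to the left and EIF5 (0.57) farthest to the right; EEF1D turned to 0.01 after rescaling to TPM, and EEF1A1 (1.12) and EEF2 (0.27) turned positive under quantile normalization.

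The balance of calls depended on the scale, since a rescaling to TPM (each library's FPKM divided by its sum) moved the median of all genes to 0.26, and scaling to listed reads moved it to 0.12. On the TPM scale 22 members were called higher and 10 lower, against 41.5% and 6.41% of all genes. Scaled to listed reads, the counts were 13 and 17, against 23.8% and 10.2%. In all 3 scalings the members' share lower was above that of all genes. The 9 members called higher kept that call in both, and of the 21 called lower 10 kept it on the TPM scale and 17 when scaled to listed reads. The lower calls on EIF2S2, EIF2B3, EIF3A, EIF3E, EIF3H, EIF3M, EIF4H, EEF1A1, EEF1B2, EEF1D and EEF2K ended on the TPM scale. Those on EIF2S2, EIF3E, EIF3H and EEF1D also ended when scaled to listed reads, those on EIF3H and EEF1D with limma-voom, and that on EEF1B2 under quantile normalization. Of the 30 members with no call at the deposited scale, 13 were called higher on the TPM scale (among them EIF3I, EIF5A, EIF2S1 and EIF1AX), 4 when scaled to listed reads and 6 with limma-voom. EIF4A2, EIF4A3, EIF4E2 and EEF1AKMT3 were called higher in each of these settings. Testing every gene with no filter on low values ended the calls on EIF2S2, EIF2S3B, EIF3E, EIF4G1, EIF4EBP2, EIF5B, EIF5A2, EEF1A1, EEF1B2, EEF1D and EEF2. Under all 15 alternatives run, 8 lower calls held (EIF1, EIF2S3, EIF4B, EIF4EBP1, EIF3D, EIF3L, EIF2A and EIF3F) and 3 higher calls (EIF5, EIF1AD and EIF4G3).

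Among the genes named for eIF1 and eIF1A, EIF1 fell, EIF1AD rose and EIF1AX, which encodes eIF1A, did not pass the test. EIF1, the small protein that guards start codon selection, is encoded on chromosome 17 at 41688885 to 41692668 (GRCh38, forward strand). It stood at 149.6, 148 and 152 FPKM with celastrol and at 256, 257 and 267 FPKM with DMSO. The groups were far apart and each was tight, with means of 149.7 ± 2.20 and 260.1 ± 6.07 (SD, n = 3 each). The log2 fold change was −0.80 (SE 0.06, adjusted p = 0.000201 by limma), or 1.74-fold lower. EIF1AD, a protein with an eIF1A-like domain, read 15.0, 14.4 and 13.3 FPKM with celastrol against 10.5, 9.98 and 11.5 with DMSO (log2 fold change 0.41, adjusted p = 0.00972 by limma). Its 3 celastrol libraries all lay above the DMSO libraries. Neither EIF1B (log2 fold change −0.12) nor EIF1AX (0.22) passed. The ratio of EIF1 to its paralogue EIF1B was 3.36, 3.47 and 2.83 with celastrol and 5.54, 4.75 and 5.12 with DMSO.

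Among the subunits of eIF2, the gamma and beta subunit genes fell while the alpha subunit gene did not pass the test. EIF2S3, the GTP-binding gamma subunit on chromosome X at 24054716 to 24077971, measured 129, 118 and 105 FPKM with celastrol and 217, 239 and 232 FPKM with DMSO. Its means were 118 ± 12.0 and 229 ± 11.1 (SD, n = 3 each), and its log2 fold change of −0.97 (SE 0.09, adjusted p = 0.000445 by limma) was the most negative of the tested members at the deposited scale. EIF2S2, the beta subunit, was at 66.5, 68.4 and 79.4 FPKM against 87.0, 95.7 and 91.8 FPKM (log2 fold change −0.36, adjusted p = 0.0181 by limma). EIF2S1, the alpha subunit whose phosphorylation slows initiation, was at 17.8, 16.5 and 18.2 FPKM against 12.8, 16.4 and 15.9 (log2 fold change 0.23, adjusted p = 0.143 by limma), and its groups nearly met. EIF2S1 was called higher on the TPM scale (0.47, adjusted p = 0.0109 by limma) and with limma-voom (0.33, adjusted p = 0.0142). The transcript ratio of EIF2S3 to EIF2S1 was accordingly 7.28, 7.14 and 5.78 with celastrol and 17.0, 14.6 and 14.6 with DMSO. EIF2A, an alternative initiator tRNA carrier distinct from eIF2, fell from 41.4, 55.1 and 50.7 FPKM with DMSO to 30.5, 31.8 and 31.2 FPKM with celastrol (log2 fold change −0.64, adjusted p = 0.00451 by limma). EIF2S3B fell by 0.87 on the log2 scale (adjusted p = 0.0137 by limma) at 1.89 to 5.39 FPKM, and as a near copy of EIF2S3 it may share its reads. The EIF2S2 call ended without celastrol replicate 1, celastrol replicate 2 or DMSO replicate 3.

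The exchange factor eIF2B, which reloads eIF2 with GTP, showed opposite small changes in a pair of its 5 subunit genes. EIF2B1, the regulatory alpha subunit, rose to 27.7, 27.1 and 28.1 FPKM from 23.2, 22.5 and 22.0 (log2 fold change 0.29, adjusted p = 0.0125 by limma). EIF2B3, the gamma subunit of the catalytic part, fell to 21.2, 20.8 and 22.4 FPKM from 26.8, 27.3 and 25.8 (log2 fold change −0.31, adjusted p = 0.0114 by limma). The ratio of EIF2B3 to EIF2B1 was 0.766 to 0.797 in the celastrol libraries and 1.15 to 1.21 in the DMSO libraries. EIF2B2, EIF2B4 and EIF2B5 did not pass, at log2 fold changes of −0.12 to 0.03. The EIF2B1 call ended without DMSO replicate 3 and the EIF2B3 call without celastrol replicate 2.

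Of 3 genes for factors that act after scanning, EIF5 and EIF5B rose and EIF6 did not pass the test. EIF5, which triggers GTP hydrolysis by eIF2, is encoded on chromosome 14 at 103333544 to 103345025 and rose to 30.3, 33.9 and 36.1 FPKM from 20.2, 24.2 and 23.3. The groups did not overlap, and the log2 fold change was 0.57 (SE 0.10, adjusted p = 0.00548 by limma), above that of every other tested member. EIF5B, the GTPase that joins the large subunit, was at 34.7, 34.5 and 35.7 FPKM with celastrol and at 23.5, 30.1 and 27.6 with DMSO (log2 fold change 0.38, adjusted p = 0.0227 by limma). That call ended without any 1 of the celastrol replicates and without DMSO replicate 3. EIF6, which keeps free large subunits apart from small ones, overlapped between groups at 47.4 to 59.4 and 49.0 to 54.5 FPKM.

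The scaffold complex eIF3 did not move as a block: 7 of its 14 tested genes fell and 7 did not pass the test. EIF3D, the subunit that can itself bind certain mRNA caps, is encoded on chromosome 22 at 36510850 to 36529436. It read 57.6, 53.8 and 55.8 FPKM with celastrol and 100.04, 94.7 and 98.9 FPKM with DMSO. Means of 55.7 ± 1.88 and 97.9 ± 2.83 (SD, n = 3 each) gave a log2 fold change of −0.81 (SE 0.06, adjusted p = 0.000231 by limma). EIF3L fell to 56.2, 50.1 and 48.3 FPKM from 77.8, 73.1 and 76.0 (log2 fold change −0.55, adjusted p = 0.00226 by limma). Exons of other genes cover 51.8% of the EIF3L exon bases in GENCODE 29, so its listed level may not be complete. EIF3F fell to 15.6, 13.5 and 14.2 FPKM from 20.9, 19.6 and 19.9 (log2 fold change −0.48, adjusted p = 0.004 by limma), and EIF3M to 25.5, 23.4 and 24.3 FPKM from 30.1, 34.6 and 34.9 (log2 fold change −0.44, adjusted p = 0.00684 by limma). For each of these 4 subunits the celastrol libraries lay wholly below the DMSO libraries. Smaller falls passed for EIF3E (log2 fold change −0.41), EIF3A (−0.36) and EIF3H (−0.27). Those on EIF3E and EIF3H ended without celastrol replicate 2 or DMSO replicate 3, and that on EIF3A without DMSO replicate 3.

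The other 7 eIF3 genes (EIF3B, EIF3C, EIF3CL, EIF3G, EIF3I, EIF3J and EIF3K) had log2 fold changes of −0.13 to 0.08. EIF3I, the eIF3 gene at the highest FPKM, was at 235, 222 and 247 with celastrol and 245, 219 and 227 with DMSO. The ratio of EIF3D to EIF3I was therefore 0.226 to 0.245 against 0.408 to 0.436, a value that library scaling leaves as it is. EIF3C and EIF3CL are near-identical copies whose reads counting can split in different ways, and EIF3CL was at 2.98 FPKM in celastrol replicate 2 but at 8.36 and 10.3 in the other celastrol libraries. The FPKM of all eIF3 genes summed to 871 ± 28.6 (SD, n = 3) in celastrol libraries and 1022 ± 15.4 (SD, n = 3) in DMSO libraries, a decrease of 14.8% that turned to −0.69%, a slight rise, on the TPM scale.

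**Figure D2:**
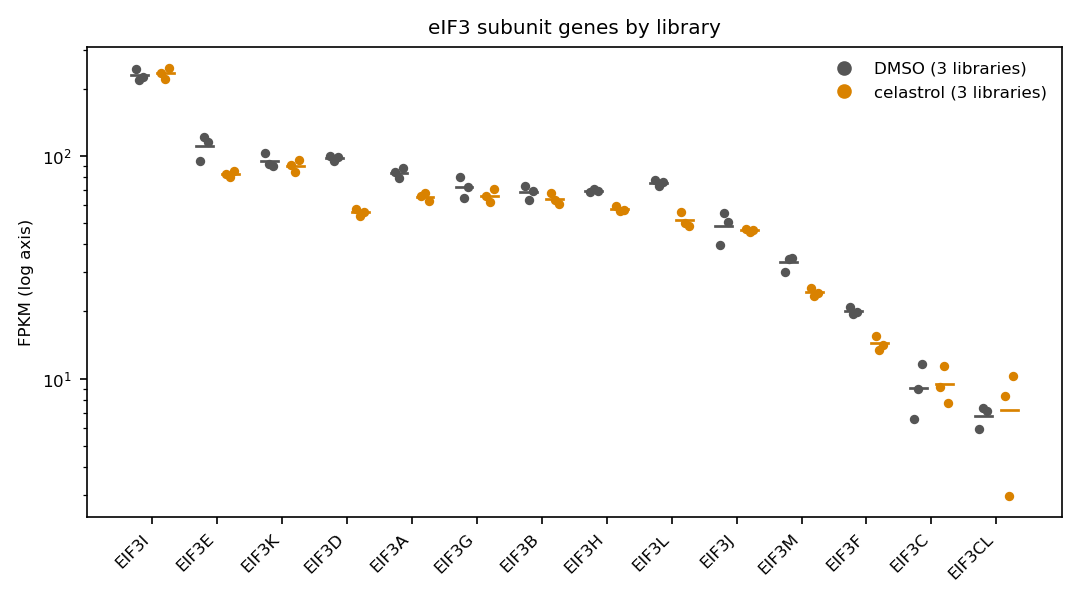
FPKM of the eIF3 subunit genes in each library (log axis), 3 celastrol and 3 DMSO libraries per gene, with a line at each group mean. EIF3D and EIF3L separate clearly between the groups, and EIF3I, EIF3K and EIF3G overlap.

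Within eIF4F and its helicase cofactors, the cofactor genes EIF4B and EIF4H fell and all 3 eIF4G genes rose. EIF4B, which stimulates the eIF4A helicase, is encoded on chromosome 12 at 53006158 to 53042209. It measured 95.0, 89.8 and 81.1 FPKM with celastrol and 162, 169 and 174 FPKM with DMSO, 1.90-fold lower (means 88.6 ± 7.01 and 168 ± 6.41, SD, n = 3 each). The log2 fold change was −0.93 (SE 0.08, adjusted p = 0.0003 by limma). EIF4H, a related cofactor, was at 190.3, 180.3 and 177 FPKM against 249, 216 and 245 (log2 fold change −0.37, adjusted p = 0.0105 by limma). That call ended without DMSO replicate 3.

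EIF4G3, a paralogue of the main scaffold, rose to 9.75, 11.0 and 12.3 FPKM from 8.39, 6.97 and 8.05 (log2 fold change 0.49, adjusted p = 0.0142 by limma). EIF4G2, which lacks the eIF4E-binding part, was at 67.1, 67.7 and 69.0 FPKM against 48.3, 56.7 and 56.5 (log2 fold change 0.34, adjusted p = 0.0171 by limma), and EIF4G1, the main scaffold, at 83.0, 78.4 and 77.9 FPKM against 69.0, 59.3 and 66.7 (log2 fold change 0.30, adjusted p = 0.0248 by limma). The groups of each of the 3 genes lay apart. The EIF4G2 call ended without celastrol replicate 2 or 3, and the EIF4G1 call without any 1 of the celastrol replicates or DMSO replicate 3. The ratio of EIF4B to EIF4G1 was 1.14, 1.14 and 1.04 with celastrol and 2.34, 2.85 and 2.62 with DMSO. EIF4E, the cap-binding protein, stood at 3.68 to 4.59 FPKM over all libraries (log2 fold change 0.10, adjusted p = 0.481 by limma), and its relative EIF4E2 at 5.02 to 7.11 (0.26, adjusted p = 0.0622 by limma). The helicase gene EIF4A2 was at 85.8, 87.9 and 89.2 FPKM against 70.1, 79.9 and 78.8 (log2 fold change 0.20, adjusted p = 0.0716 by limma). The other helicase gene, EIF4A1, was listed at only 0.987 to 1.48 FPKM, 78 to 113 reads. Exons of other genes cover 48.6% of its exon bases in GENCODE 29, so this value may not be its level. The exon junction helicase EIF4A3 did not pass at the deposited scale (log2 fold change 0.10). EIF4A2, EIF4A3 and EIF4E2 were called higher on the TPM scale, scaled to listed reads and with limma-voom.

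The repressors that bind eIF4E shifted in composition. EIF4EBP1, which competes with eIF4G for eIF4E until mTOR phosphorylates it, was at 66.5, 62.4 and 70.3 FPKM with celastrol and 129.7, 97.3 and 114 with DMSO (log2 fold change −0.77, SE 0.11, adjusted p = 0.00259 by limma). The celastrol libraries all lay below the lowest DMSO library. Its paralogue EIF4EBP2 was at 50.8, 49.0 and 46.4 FPKM against 39.0, 41.3 and 42.4 (log2 fold change 0.25, adjusted p = 0.0296 by limma). EIF4EBP1 thus made up 56.7%, 56.0% and 60.2% of the summed FPKM of the pair with celastrol and 76.9%, 70.2% and 72.9% with DMSO. The EIF4EBP2 call ended without celastrol replicate 1, celastrol replicate 2, DMSO replicate 1 or DMSO replicate 3. EIF4ENIF1, which carries eIF4E into the nucleus, did not pass (log2 fold change −0.21).

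The gene of eIF5A, the hypusine-bearing factor that helps ribosomes past difficult peptide bonds, did not pass the test at the deposited scale. EIF5A read 135, 128 and 133 FPKM with celastrol and 142, 113 and 125 with DMSO (log2 fold change 0.07, adjusted p = 0.618 by limma), and was called higher on the TPM scale (0.31, adjusted p = 0.0139 by limma). Its minor paralogue EIF5A2 was at 4.53, 4.43 and 5.03 FPKM against 3.19, 4.02 and 3.51 (log2 fold change 0.38, adjusted p = 0.0368 by limma), a call that ended in every leave-one-out fit except that without DMSO replicate 2. EIF5AL1 did not pass (log2 fold change 0.09).

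Elongation factor genes held the highest levels of the family, and EEF2 fell. EEF2, the translocase, is encoded on chromosome 19 at 3976056 to 3985469. It measured 1277, 1164 and 1067 FPKM with celastrol and 2229, 1764 and 1985 with DMSO. Its means of 1169 ± 105 and 1993 ± 233 (SD, n = 3 each) gave a log2 fold change of −0.77 (SE 0.11, adjusted p = 0.0024 by limma), which held on the TPM scale (−0.53) and turned to 0.27 under quantile normalization (adjusted p = 0.121 by limma). EEF1A1, the main tRNA-delivering factor, was at 2699.8, 2575 and 2646 FPKM against 3233, 3083 and 3273, lower by a log2 fold change of −0.28 (SE 0.07, adjusted p = 0.0185 by limma) at the deposited scale. The difference was −0.03 on the TPM scale and turned to 1.12 under quantile normalization (adjusted p = 0.000165 by limma). Its rank among all genes was 3, 2 and 2 in the celastrol libraries and 7, 8 and 7 in the DMSO libraries. The call ended without celastrol replicate 2, DMSO replicate 1 or DMSO replicate 3. The ratio of EEF2 to EEF1A1, which library scaling leaves as it is, was 0.473, 0.452 and 0.403 with celastrol and 0.69, 0.572 and 0.607 with DMSO. EEF1A2, the muscle and nerve form of eEF1A, was at 12.3 to 12.6 and 12.9 to 17.9 FPKM and did not pass (log2 fold change −0.28, adjusted p = 0.109 by limma).

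In the eEF1B complex, which recharges eEF1A with GTP, EEF1B2 and EEF1D were lower. EEF1B2 was at 148, 144 and 165 FPKM against 180.3, 196 and 197 (log2 fold change −0.33, adjusted p = 0.0168 by limma), a call that ended without celastrol replicate 1, celastrol replicate 2 or DMSO replicate 3. EEF1D was at 11.5, 11.3 and 11.7 FPKM against 14.0, 12.6 and 14.0 (log2 fold change −0.23, adjusted p = 0.0451 by limma), a value that turned to 0.01 on the TPM scale and was called in only 1 of the leave-one-out fits, that without DMSO replicate 2. EEF1G, the structural gamma subunit, was listed at 0, and 99.9% of its exon bases lie within exons of another listed gene, AP002990.1, itself at 0.329 to 0.755 FPKM. The listed 0 therefore gives no level for EEF1G, and the handling of such shared bases was not given in the sources used here. EEF1E1, a protein of the multisynthetase complex, did not pass (log2 fold change −0.20). EEF2K, the kinase that inhibits eEF2, was at 11.3, 10.4 and 9.39 FPKM against 13.6, 13.1 and 13.5 (log2 fold change −0.37, adjusted p = 0.0145 by limma). That call ended without celastrol replicate 2 or DMSO replicate 3. The 5 tested methyltransferases of eEF1A and eEF2 did not pass at the deposited scale, with log2 fold changes of −0.25 to 0.35. EEF1AKMT3 was called higher on the TPM scale, scaled to listed reads and with limma-voom, and EEF2KMT on the TPM scale only.

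**Figure D3:**
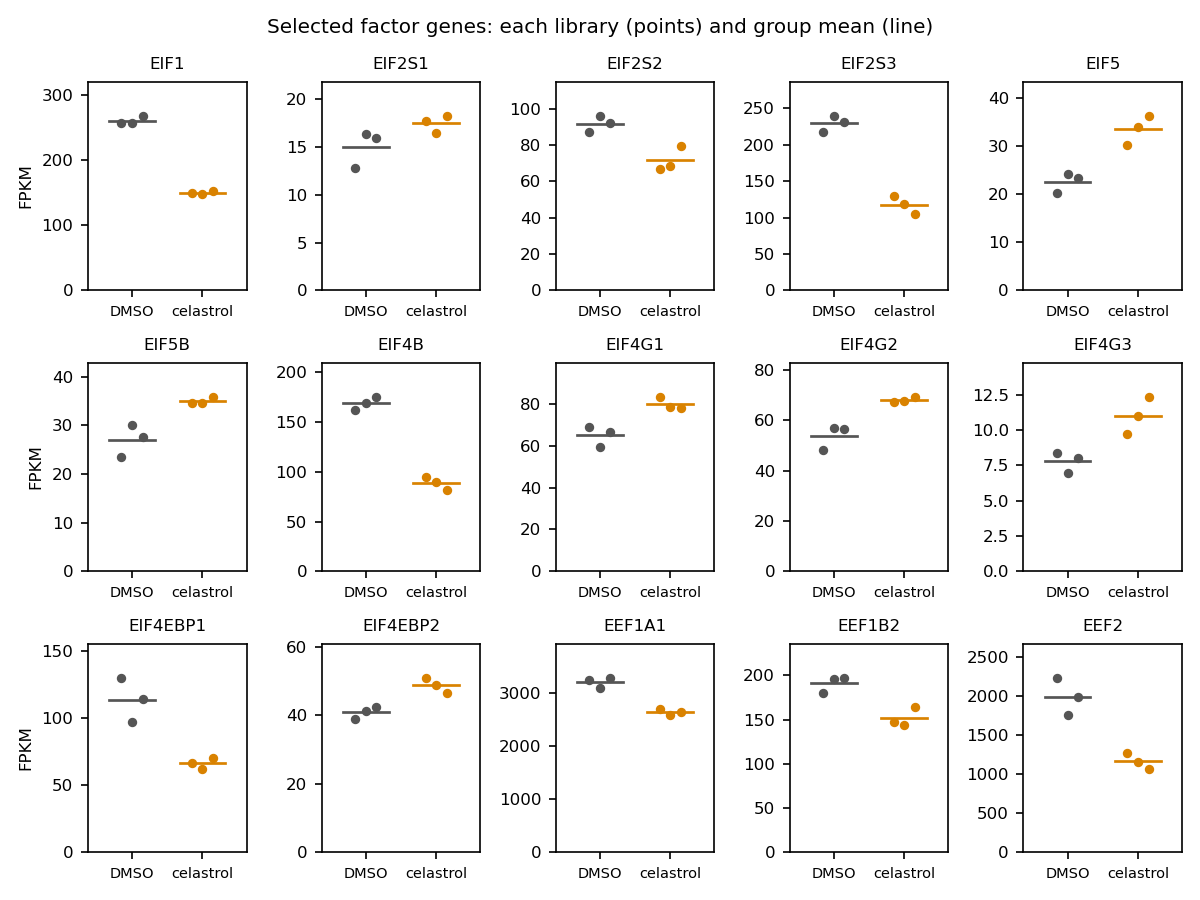
FPKM of selected members in each of the 6 libraries, with a line at each group mean; every panel has its own linear axis from 0. EIF1, EIF2S3, EIF4B, EIF4EBP1 and EEF2 sit lower with celastrol in all libraries and EIF5 sits higher; EEF2 turned to 0.27 (log2) under quantile normalization.

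The annotated starts of the members were read from RefSeq promoter windows (GRCh38.p14), to show whether a TOP-like start accompanied the direction of change. A TOP-like start was scored where the annotated first transcribed base is C and the next 4 or more are C or T, on the transcript's strand only. The following windows run 5′ to 3′ from 10 bases before the start to 20 bases from it, and capitals mark the first 5 transcribed bases. The first 6 have a TOP-like start and fell with celastrol at the deposited scale, EIF4A2 has one and did not pass the test, and the last 4 have none.
EEF1A1, chr6:73521013-73521042, reverse strand: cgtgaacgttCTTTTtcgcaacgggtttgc
EEF2, chr19:3985444-3985473, reverse strand: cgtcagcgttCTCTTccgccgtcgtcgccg
EIF2S3, chrX:24054946-24054975, forward strand: gatttccttcCTCTTttggcaacatggcgg
EIF4B, chr12:53006446-53006475, forward strand: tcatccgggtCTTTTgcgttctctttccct
EIF3D, chr22:36529147-36529176, reverse strand: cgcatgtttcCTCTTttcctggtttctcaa
EIF3F, chr11:7987327-7987356, forward strand: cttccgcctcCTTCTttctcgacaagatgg
EIF4A2, chr3:186783567-186783596, forward strand: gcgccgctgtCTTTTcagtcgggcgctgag
EIF1, chr17:41688875-41688904, forward strand: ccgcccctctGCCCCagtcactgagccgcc
EIF4H, chr7:74174346-74174375, forward strand: ctcgctcaccCTGGTtcctctcggagcgga
EIF5B, chr2:99337379-99337408, forward strand: ctgagaactcACACCatatgtgtcctgttc
EIF1AD, chr11:66002138-66002167, reverse strand: cagcgccggaAGTACggttttcggagggat

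Of the members, 54 had an entry, with 71 windows, and 13 of these (18.3%) had a TOP-like start, against 4.07% of all 35116 windows in the table. Among the 13 members with such a start, 10 fell and 0 rose at an adjusted p under 0.05 by limma, with a median log2 fold change of −0.48. The 10 were EEF1A1, EEF2, EEF1B2, EIF2A, EIF2S3, EIF2S3B, EIF3D, EIF3F, EIF3M and EIF4B, and the 3 without a call were EIF2D, EIF3K and EIF4A2. Of these, EIF4A2 was higher at an unadjusted p under 0.05, and limma-voom called 1 higher. A member was counted here if any of its annotated starts matched, and EEF1B2 and EIF2S3B each also had a start that did not. EIF2S3B is a near copy of EIF2S3 and may share its reads, so the pair may not be separate cases. Among the 34 tested members with entries and no such start, 4 fell (EIF1, EIF4H, EIF2B3 and EEF2K) and 9 rose, with a median of 0.07. The EIF1 sequence shows that a strong fall also occurred beside a start beginning with G. The 13 tested members with no entry held 7 lower calls and could not be placed. Among all tested protein-coding genes, 25.4% of the 654 with a TOP-like start were lower and 10.6% higher (median −0.09), against 12.6% lower and 17.7% higher of the 7435 without (median 0.05). On the TPM scale the members with a TOP-like start had 7 lower and 1 higher call and the others 1 and 19. Testing every gene, low values included, left 6 lower calls with a TOP-like start. A match in these letters depends on the exact base annotated as the start and does not show which base is used in these cells.

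**Figure D4:**
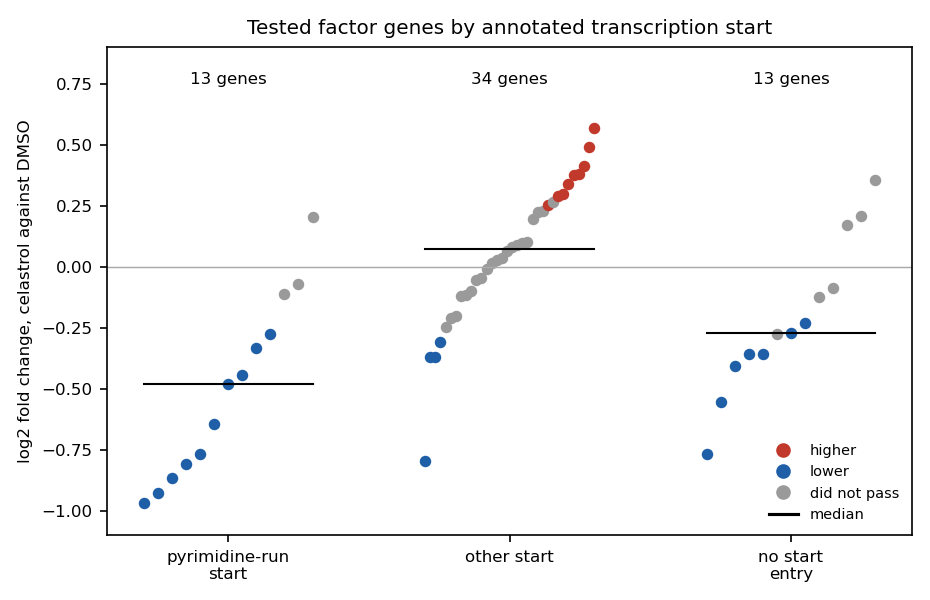
Log2 fold change (celastrol minus DMSO, FPKM as deposited) of tested members by annotated start: 13 with a TOP-like start, 34 with an entry and none, and 13 with no entry; lines mark the medians. The TOP-like group has its median at −0.48 and the second group at 0.07; EEF1A1 and EEF2 turned positive under quantile normalization.

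Genes that modify or partner these factors gave calls in both directions. Among all genes tested, 14.2% were lower and 15.3% higher, and the counts in the short lists below were not tested against these shares. Of 6 tested genes of the poly(A)-binding protein list, 3 fell and 1 rose. PABPC1, the poly(A)-binding protein that contacts eIF4G, was at 384, 348 and 318 FPKM with celastrol and 552, 573 and 555 with DMSO (log2 fold change −0.68, SE 0.08, adjusted p = 0.00127 by limma). Its groups lay far apart, as did those of EIF4B and EIF3D. PABPC4 (log2 fold change −0.33) and PDCD4, an inhibitor of eIF4A (−0.30), were also called lower, and PAIP2, a poly(A)-binding protein inhibitor named after its value was seen, was called higher (0.28). Among 11 kinase genes upstream of initiation, MKNK1, which phosphorylates eIF4E (−0.56), MLST8, an mTOR complex subunit (−0.48), and EIF2AK1, the haem-regulated eIF2 kinase (−0.29), fell. By limma-voom 2 of the 11 were lower and 3 higher (MKNK2, RPS6KB1 and EIF2AK2). On the TPM scale MKNK2, RPS6KB1, RPS6KB2, RPTOR and EIF2AK2 were called higher, and MKNK1 and MLST8 stayed lower. Of 9 hypusine and diphthamide enzymes, DPH5 (−0.59, adjusted p = 0.00112 by limma) and DPH7 (−0.34) fell and DPH3 (0.57) rose; these build the modified histidine of eEF2. Of 9 mitochondrial translation factors, MRRF, which recycles mitochondrial ribosomes (−0.71), and GFM1 (−0.33) fell and GFM2 (0.33) rose. Of 8 termination and recycling genes limma-trend called 0 at the deposited scale (1 at an unadjusted p under 0.05, DENR, and 2 by limma-voom). On the TPM scale DENR, MCTS1, GSPT1 and PELO were called higher, as were 41.5% of all genes. Uncalled genes of the other lists were also called higher there, among them PAIP1, DOHH and MTIF2. ETF1, the release factor that reads stop codons, stood at 55.7 to 61.9 FPKM over the 6 libraries. The calls on PABPC4, PDCD4, EIF2AK1, DPH7 and GFM1 ended on the TPM scale, and those on PDCD4, EIF2AK1, DPH7 and DPH3 with no filter on low values. Leaving out a single library ended those on PABPC4 (DMSO replicate 3), PAIP2 (celastrol replicate 2 or 3 or DMSO replicate 3), PDCD4 (celastrol replicate 1 or 3 or DMSO replicate 2 or 3) and EIF2AK1 and DPH7 (celastrol replicate 2 or 3 or DMSO replicate 1 or 3). The same held for GFM1 (celastrol replicate 2 or 3 or DMSO replicate 3) and GFM2 (any celastrol replicate or DMSO replicate 3).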

How the data were processed

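The authors aligned and counted reads with HISAT2 2.0.5 and featureCounts 1.5.0-p3 on GRCh38 (hg38), per the submitters' processing notes, and deposited 1 gene table in FPKM. Counting settings for overlapping or repeated genes were not given in the sources used here. Multiplying FPKM by the deposited gene length and by a divisor found for each library gave whole reads for 100.0% of values (tolerance 0.001), which set the depths given. Gene lengths and exon overlaps of the 67 members were matched to GENCODE 29.

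Groups follow the sample titles, 3 libraries each. Log2(FPKM + 0.1) of genes with a mean of at least 1 FPKM was fitted with limma 3.58.1 (R 4.3.3) with an intensity trend, treatment as the only term. Tables were handled in Python 3.11.15 with pandas 2.3.3. Scripts were tested on simulated data. Alternatives were pseudocounts of 1 and 0.01, no filter and a mean of at least 5 FPKM, TPM, listed reads, quantile normalization, limma-voom on recovered reads, a replicate block and leaving out each library. The members, complexes, marker and pathway lists were chosen with earlier results of these data known; 1 marker list is not reported here. Members with a mean of at least 1 FPKM could be named, with values per library for up to 4 called members of a complex by size of change and for its most abundant one, and up to 3 called genes of each pathway list. The start sequences shown are those of 11 members chosen after their values were seen. Each ratio shown sets a gene that fell over a gene that fell less, rose or did not pass. The separation of these ratios between groups therefore adds no separate support. Paralogue shares within the EIF4G, EIF4A, EIF5A, eEF1A and EIF3C families overlapped between groups. Within groups, libraries differed by more than counting noise (chi-square per gene 4.01 to 13.4), so all 6 were kept.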

Additional observations from a re-analysis of the deposited data

How the results depend on the processing

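The 30 member calls held under both other pseudocounts, and the 28 tested with a mean filter of 5 FPKM held there (EIF2S3B and EIF5A2 were not tested). Members called higher, 9 at the deposited scale, were 5 with no filter, 22 on the TPM scale and 15 with limma-voom. They ranged from 4 to 11 when 1 library was left out (5 without celastrol replicate 1, 4 without celastrol replicate 2, 5 without celastrol replicate 3 and 4 without DMSO replicate 3). Members called lower, 21, were 10 on the TPM scale and ranged from 12 to 22 on leaving 1 out (13 without celastrol replicate 2 and 12 without DMSO replicate 3). In all 6 such fits 11 lower and 3 higher calls were kept. Shares of all genes called moved too: 15.3% higher and 14.2% lower at the deposited scale, 41.5% and 6.41% on the TPM scale. For no filter, limma-voom and the leave-one-out fits those shares are not given here. Among the called members, reversals in these settings were EEF1A1 (1.12) and EEF2 (0.27) under quantile normalization and EEF1D (0.0067) on the TPM scale. Of the 30 uncalled members, 12 changed sign on the TPM scale. ETF1, an uncalled gene of the termination list, stood at 0.19 on the TPM scale, 0.0428 scaled to listed reads and 0.0432 with limma-voom. The summed eIF3 and eIF4F decreases turned to −0.69% and −1.24% on the TPM scale, that is, slightly higher with celastrol. On leaving 1 library out, the EIF3I log2 fold change moved between −0.0089 and 0.0749 and the EIF5A log2 fold change between −0.0147 and 0.1508. The causes were not tested. The labels do not state whether replicate numbers pair the samples. Same-number correlations of deviations from the group means were −0.0156, −0.0326 and 0.0339. They cannot settle it, since deviations within a group of 3 libraries depend on each other. With the replicate block, 7 members were called higher and 20 lower; EIF4EBP2, EIF5A2 and EEF1D lost their call. Fewer than 10 reads limit EIF4EBP3, and about 100 limit EIF4A1.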

Other observations

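The table also lists 136 pseudogene rows named for EIF or EEF genes, of which 14 had a mean of at least 1 FPKM. By the same limma fit 8 were called lower and 0 higher (0 higher also at an unadjusted p under 0.05 and by limma-voom, which called 5 lower). The shares among all genes tested were 14.2% lower and 15.3% higher. EEF1A1P5, a processed copy of EEF1A1 on chromosome 9, was listed at 312, 354 and 334 FPKM with celastrol and 413, 457 and 476 with DMSO (log2 fold change −0.43, adjusted p = 0.00793 by limma). EIF4BP3 and EIF4BP7, copies of EIF4B, had log2 fold changes of −0.87 and −0.85, beside −0.93 for EIF4B itself. Reads of the parent genes can be assigned to such copies, and whether these rows hold transcripts of their own was not tested.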
